A study of Mus musculus with 16 samples.

Results

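The libraries described here are the 8 taken from the small intestinal epithelium of mice before weaning, at postnatal day 6 (P6). They were chosen by their labelled age and are 8 of the 16 libraries of the series, 4 from jejunum and 4 from ileum. Jejunum and ileum came from each of 4 wild-type C57BL6/J mice, 2 female and 2 male, so that replicates 1 to 4 of both regions are the same 4 animals (1 and 2 female, 3 and 4 male). No transgene, deletion or treatment was labelled for any of them. Epithelium was released from short segments with EDTA, a calcium chelator that loosens the epithelial sheet but can leave other cells in the preparation, and poly(A) RNA was sequenced as stranded libraries. The other 8 libraries are the same regions of 4 wild-type C57BL6/J mice at P36, after weaning. They enter the test of whether a regional difference at P6 differed from that at P36, and they share the low count filter and the estimate of spread with the P6 comparison. The deposited values are read counts per gene, and levels are given below as CPM, counts scaled to a common library size by TMM. Differences are log2 ratios of jejunum over ileum with their SE, so that positive values are higher in jejunum. A gene is said to differ where the adjusted p of edgeR's quasi-likelihood test, fitted without the mouse as a block, was below 0.05. Where 4 values are listed for a region they are replicates 1 to 4 in order. Means are given with the SD of 4 libraries. The 109 genes described were picked from 368 that a naming rule gave, in part for calls that held under other settings. Of the 101 called among them 96 held under every alternative fit that gave an adjusted p. Of the 218 called among the 259 genes left out 145 did. The alternative fits numbered 27, but Gata4 had no adjusted p by DESeq2 and Slc10a2 none with the 8 P6 libraries alone. The stability of the genes described therefore does not stand for that of all 368.

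The suckling intestine lives on milk, which is rich in fat, lactose and protein. Enterocytes take up fatty acids and monoacylglycerol at the brush border, rebuild triglyceride in the endoplasmic reticulum and load it on apolipoprotein B for secretion as chylomicrons, a task of the proximal small intestine. Distal enterocytes of the suckling ileum are known as lysosome-rich cells: they internalise intact milk protein and degrade it in a large supranuclear vacuole. Maternal antibody crosses the neonatal epithelium by way of the neonatal Fc receptor. The ileum is also, in the adult, the site of active bile acid recovery.

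Sequences upstream of 3 genes are shown because their gene groups are compared below and because each holds a known type of regulatory motif. Each run is 250 bases before and 50 bases from the annotated start (RefSeq, GRCm38.p6), written 5′ to 3′ on the gene's strand, with the motif match in capitals. Gene positions given further on are those of the deposited files, whose start of Fabp1 lies a few bases downstream of the RefSeq start. For Fabp1, at chr6:71199629-71199928 on the plus strand, the capitals mark a direct repeat of the kind bound by PPAR and HNF4 receptors (AGGNCA repeated after any single base, here on the opposite strand). For Hmgcs1, at chr13:119690101-119690400 on the plus strand, they mark a sterol response element (TCACNCCAC), and for B2m, at chr2:122147437-122147736 on the plus strand, an interferon-stimulated response element core (GAAA repeated after any pair of bases).
Fabp1: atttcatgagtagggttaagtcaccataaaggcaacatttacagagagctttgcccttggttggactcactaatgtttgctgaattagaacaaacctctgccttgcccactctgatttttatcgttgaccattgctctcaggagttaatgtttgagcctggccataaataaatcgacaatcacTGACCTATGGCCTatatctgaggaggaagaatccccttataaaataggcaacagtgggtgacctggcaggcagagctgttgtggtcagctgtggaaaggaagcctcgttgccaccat
Hmgcs1: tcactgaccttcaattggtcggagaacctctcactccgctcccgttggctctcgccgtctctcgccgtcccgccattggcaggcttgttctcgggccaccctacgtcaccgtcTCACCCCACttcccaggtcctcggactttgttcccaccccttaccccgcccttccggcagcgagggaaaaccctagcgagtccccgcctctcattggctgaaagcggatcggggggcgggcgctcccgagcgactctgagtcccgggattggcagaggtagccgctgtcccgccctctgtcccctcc
B2m: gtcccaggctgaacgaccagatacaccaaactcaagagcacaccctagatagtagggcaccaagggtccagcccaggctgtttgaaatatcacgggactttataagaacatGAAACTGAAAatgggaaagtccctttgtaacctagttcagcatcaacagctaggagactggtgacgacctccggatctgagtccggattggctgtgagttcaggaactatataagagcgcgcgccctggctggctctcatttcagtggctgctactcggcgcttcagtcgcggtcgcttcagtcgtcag
Searched on both strands, the 3 patterns were present in 0.381%, 1.24% and 3.44% of 32851 promoters of the same length. The direct repeat was found in 1 of 13 fatty acid uptake genes with a promoter in the table and in 0 of 22 fatty acid oxidation genes, the sterol element in 1 of 20 cholesterol genes, and the interferon element in 15 of 35 interferon-induced and class I genes. Of the 17 members of the last group that were higher in P6 jejunum, 5 held it. A match describes the letters only.

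The P6 jejunum libraries held 20362781 to 25947276 counts and the P6 ileum libraries 16629589 to 21147258, and 13429 genes were tested. Ileum replicate 2 and ileum replicate 4 stood apart from the rest. Ileum replicate 2 carried stromal transcripts: the summed level of the fibroblast list was 14.6, 13.2, 20.4 and 7.71 CPM in jejunum replicates 1 to 4 and 26.4, 282, 24 and 65.5 CPM in ileum replicates 1 to 4, and that of the endothelial list was 63.0 CPM in ileum replicate 2 and at most 15.2 CPM in the other P6 libraries. In ileum replicate 4 the deviation of gene levels from the mean of the ileum group fell with GC content (Spearman's rho across genes -0.78). By the same measure the other ileum libraries had values of 0.43 to 0.62 and the jejunum libraries -0.10 to 0.11. Deviations cancel out within a group, so the values of the other ileum libraries in part mirror that of replicate 4. The summed level of 10 epithelial markers was 5931 to 6075 CPM in jejunum and 7243, 6950.0, 7375 and 4125 CPM in ileum replicates 1 to 4, lowest in ileum replicate 4. The 20 most abundant genes took 17.8% to 19.0% of the counts in jejunum and 10.3% to 11.6% in ileum. The mice carry labels with 2 stems, L41800 (replicates 1 and 3) and L42150 (replicates 2 and 4), whose meaning the labels do not give. Between the stems 261 genes (1.94%) differed in a fit without a mouse term, with 2 mice per stem. Scaling by library totals instead of TMM moved the median log2 fold change of all tested genes from -0.05 to -0.33.

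At P6 3484 of 13429 genes, or 25.9%, differed between jejunum and ileum, 1495 (11.1%) higher in jejunum and 1989 (14.8%) higher in ileum. These 2 shares are the background for every list count below, and a list near them differs no more often than genes in general. With the study's minimum of 2 on the log2 scale, 873 genes (6.5%) differed, 296 (2.2%) higher in jejunum and 577 (4.3%) in ileum. The 4 jejunum and 4 ileum values did not overlap for 4040 genes (30.1%), and 2926 of these were also among the 3484. Under scaling by library totals 4970 genes differed, 893 higher in jejunum and 4077 in ileum, so the share higher in jejunum was 18.0% in place of 42.9%. With a GC correction the share was 51.9%, from 2756 genes higher in jejunum and 2552 in ileum. With the mouse as a block as well it was 52.7% (3147 and 2826), so which region had more genes depended on the setting. Without ileum replicate 2 the count was 3376, without ileum replicate 4 it was 4450, and without both it was 3740. Where a gene list of the report had no gene called in 1 direction, DESeq2 mostly called none there and no member had an unadjusted p below 0.05. Exceptions were 1 chylomicron gene (unadjusted p, ileum), the endothelial genes (1 by unadjusted p and 1 by DESeq2, ileum) and the lysosomal membrane genes (3 by unadjusted p and 1 by DESeq2, jejunum). These are bulk libraries, so fewer cells of a type and less RNA per cell cannot be told apart in any of the comparisons that follow.

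**Figure D1:**
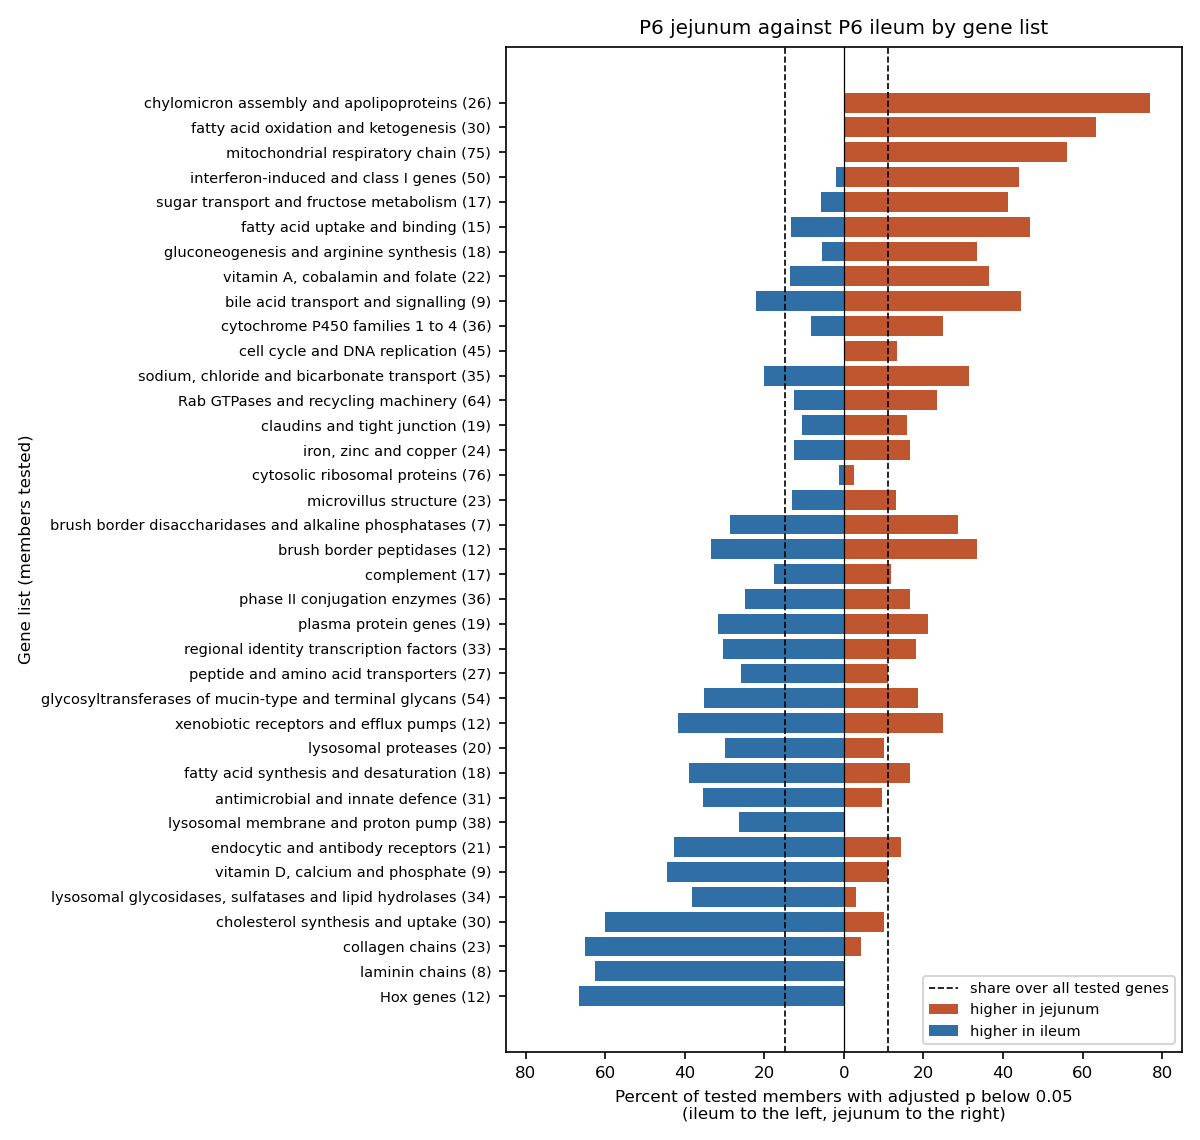
Percent of the tested members of each gene list that differed at P6, with bars to the right for genes higher in jejunum and bars to the left for genes higher in ileum. The number of tested members follows each name and the dashed lines mark the shares over all tested genes, 11.1% and 14.8%. Chylomicron, fatty acid oxidation and respiratory chain genes extend to the right and Hox, laminin, collagen and cholesterol genes to the left; the collagen, laminin and respiratory chain counts depend on single libraries or on the scaling, as given in the text.

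Levels of different genes are compared per length, as TPM. TPM was not scaled by TMM, so a regional difference is read from the test and not from TPM. Apoa4, an apolipoprotein of chylomicrons, had the highest mean level in jejunum (89599 TPM) and 12428 TPM in ileum. Apoa1 followed in jejunum with 36234 TPM against 13368 TPM in ileum. Fcgrt, the neonatal Fc receptor, came next in jejunum at 12249 TPM and stood at 1540.3 TPM in ileum. In ileum Gpx3, a secreted glutathione peroxidase, had 15962 TPM, against 10838 TPM in jejunum. Gpx3 did not pass the test between the regions and is not among the 109 genes described. Lgmn, the lysosomal protease legumain, was also among the most abundant in ileum at 10357 TPM and stood at 3298 TPM in jejunum.

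**Figure D2:**
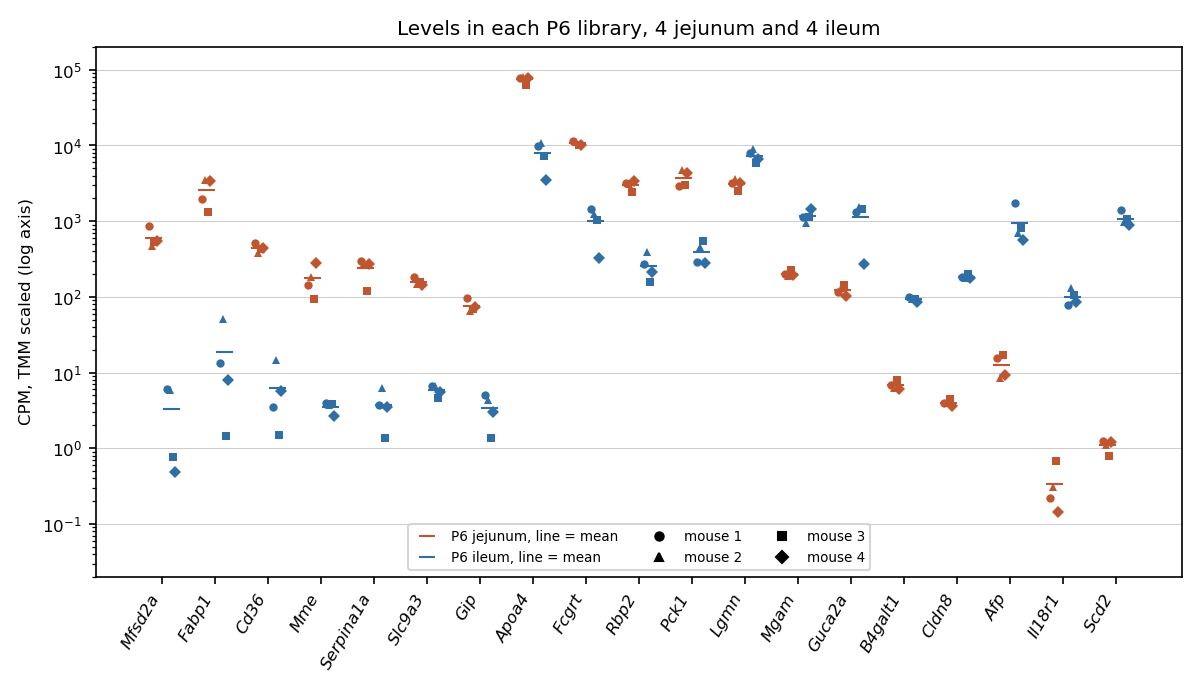
CPM (log axis) of 19 named genes in each P6 library, with a marker shape for each of the 4 mice and a line at the mean of 4. From Mfsd2a to Pck1 all 4 jejunum points lie above all 4 ileum points, and from Lgmn to Scd2 all 4 lie below. The ileum point of mouse 4 is the lowest of the 4 ileum points for Mfsd2a, Mme, Apoa4, Fcgrt, Pck1, Guca2a, B4galt1, Cldn8, Afp and Scd2.

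Several genes that bring fatty acids into the enterocyte were higher in P6 jejunum. Of 15 tested genes of fatty acid uptake and binding 7 were higher in jejunum and 2 in ileum (median log2 fold change 0.71, against -0.05 over all genes). The 2 in ileum became 1 with the mouse as a block and without most single libraries, all but P36 ileum replicates 1 and 3, P6 ileum replicate 4 and P6 jejunum replicate 3. Fabp1 (chr6:71199888-71205023, plus strand, mm10), the liver-type fatty acid binding protein whose promoter is shown above, had 1982, 3473, 1342 and 3410.4 CPM in jejunum and 13.5, 51.2, 1.46 and 7.9 CPM in ileum. Its lowest jejunum library was far above its highest ileum library (7.10 ± 1.01 log2, adjusted p = 9.41e-05). Cd36 (chr5:17781690-17888959, minus strand), a membrane receptor for long-chain fatty acids, had 513, 384, 432 and 448 CPM in jejunum and 3.5, 14.5, 1.52 and 5.79 CPM in ileum, again without overlap (6.12 ± 0.61 log2, adjusted p = 2.97e-06). Mfsd2a (chr4:122946851-122961188, minus strand), a transporter of lysophosphatidylcholine carrying long-chain fatty acids, had 858, 474, 528 and 555 CPM in jejunum and 6.02, 5.95, 0.759 and 0.49 CPM in ileum. The groups were far apart (7.50 ± 0.66 log2, adjusted p = 8.19e-07). Fabp2, the intestinal fatty acid binding protein, was at 5292 ± 936 CPM in jejunum and 502 ± 309.5 CPM in ileum (SD, n = 4 each; 3.40 ± 0.64 log2, adjusted p = 0.00108). Slc27a2, an acyl-CoA synthetase of very long-chain fatty acids, was at 130.3 ± 16.3 CPM in jejunum and 10.3 ± 1.69 CPM in ileum (3.65 ± 0.20 log2, adjusted p = 6.12e-09). The long-chain acyl-CoA synthetase Acsl4 went the other way, at 1.15 ± 0.479 CPM in jejunum and 7.25 ± 2.31 CPM in ileum (-2.64 ± 0.34 log2, adjusted p = 3.36e-05). Fabp1, Fabp2 and Cd36 were highest in ileum replicates 2 or 4 among the ileum libraries, and all 3 still differed without both of them.

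Chylomicron assembly genes were mostly higher in jejunum. Of 26 tested genes 20 were higher in jejunum and none in ileum by edgeR (median log2 fold change 1.24). Without both doubted ileum libraries, as without jejunum replicate 3, without ileum replicate 4 or with the mouse as a block, 1 gene was higher in ileum. Apoa4 (chr9:46240844-46243458, plus strand) had 78301, 81230.1, 63639 and 77753 CPM in jejunum and 9809, 10821, 7362 and 3543 CPM in ileum (3.25 ± 0.66 log2, adjusted p = 0.0019). All jejunum libraries were above all ileum libraries, and ileum replicate 4 was lowest. Apoa1 had 20404, 18094, 17241 and 16195 CPM in jejunum and 5889, 5708, 5381 and 3003 CPM in ileum (1.85 ± 0.49 log2, adjusted p = 0.0119), a call that was lost without both doubted ileum libraries (adjusted p = 0.0711). Apoc3, an apolipoprotein that slows triglyceride hydrolysis, was at 3421 ± 485 CPM in jejunum and 343 ± 149 CPM in ileum (3.32 ± 0.49 log2, adjusted p = 0.000125). Mttp (chr3:138089855-138143388, minus strand), the microsomal transfer protein that loads lipid on apolipoprotein B, had 6528, 5783, 5232 and 5382 CPM in jejunum and 1401, 1126, 1230.1 and 1823 CPM in ileum. Its groups did not overlap (2.04 ± 0.36 log2, adjusted p = 0.000583). Apob, the structural protein of the chylomicron, had 14619.8, 13165, 17776 and 11286 CPM in jejunum and 8307, 4759.9, 5819.5 and 13510.1 CPM in ileum, and these overlapped (0.81 ± 0.50 log2, adjusted p = 0.254). Surf4, a cargo receptor for export of lipoproteins from the endoplasmic reticulum, was at 749.8 ± 47.9 CPM in jejunum and 293 ± 50.3 CPM in ileum (1.36 ± 0.16 log2, adjusted p = 1.39e-05).

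Fatty acid oxidation followed the same direction. Of 30 tested genes of fatty acid oxidation and ketogenesis 19 were higher in jejunum and none in ileum by edgeR (median log2 fold change 0.81), and 15 under scaling by library totals. Acat1 (chr9:53580522-53610350, minus strand), the mitochondrial acetoacetyl-CoA thiolase, had 812, 696, 627 and 814 CPM in jejunum and 159, 157, 123 and 228 CPM in ileum. All 4 jejunum libraries were above all 4 ileum libraries (2.14 ± 0.20 log2, adjusted p = 1.46e-06). Hadha, a subunit of the trifunctional protein of beta-oxidation, was at 755 ± 44.1 CPM in jejunum and 375 ± 18.9 CPM in ileum, a smaller difference with a small error (1.01 ± 0.11 log2, adjusted p = 9.06e-06). Ppara, the receptor that drives many of these genes, had 51.4, 56.5, 58 and 47.2 CPM in jejunum and 34.9, 44.3, 56 and 52.1 CPM in ileum, which overlapped (0.19 ± 0.15 log2, adjusted p = 0.391). Genes of the mitochondrial respiratory chain were higher in jejunum for 42 of 75 tested genes and in ileum for none by edgeR (median log2 fold change 0.65). That count was 63 without ileum replicate 4, 27 with the 8 P6 libraries alone and 14 under scaling by library totals. With a GC correction it was 55 (median log2 fold change 0.65), and 63 with the mouse as a block as well (median 0.66), with none higher in ileum. Beyond this correction the part of the GC trend in the count was not tested.

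The synthesis of cholesterol ran in the opposite direction. Of 30 tested genes of cholesterol synthesis and uptake 18 were higher in ileum and 3 in jejunum (median log2 fold change -1.16), and the counts without both doubted libraries were 19 and 2. Hmgcs1 (chr13:119690351-119708260, plus strand), the HMG-CoA synthase of the cytosol whose promoter is shown above, had 76.4, 78.5, 76.9 and 93.9 CPM in jejunum and 225, 201, 178 and 247 CPM in ileum. The ileum libraries were all above the jejunum libraries (-1.39 ± 0.20 log2, adjusted p = 0.000133). The isomerase Idi1 was at 4.61 ± 0.571 CPM in jejunum and 19.2 ± 4.8 CPM in ileum (-2.06 ± 0.16 log2, adjusted p = 2.73e-07) and Dhcr7, the enzyme of the last step, at 21.9 ± 1.42 CPM in jejunum and 87 ± 14.1 CPM in ileum (-1.99 ± 0.15 log2, adjusted p = 1.34e-07). Stard4, a cytosolic sterol carrier, was also higher in ileum, at 66.5 ± 7.47 CPM in jejunum and 257 ± 38.2 CPM in ileum (-1.95 ± 0.17 log2, adjusted p = 5.75e-07). Among the 3 genes higher in jejunum were Soat2, which esterifies cholesterol (1.82 ± 0.32 log2, adjusted p = 0.000562), and Abcg5, which exports sterols to the lumen, at 285 ± 50.3 CPM in jejunum and 139 ± 15.1 CPM in ileum (1.03 ± 0.22 log2, adjusted p = 0.00267).

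Scd2 (chr19:44293676-44306862, plus strand), a stearoyl-CoA desaturase, had the largest difference among the genes of fatty acid synthesis. Its levels were 1.27, 1.12, 0.788 and 1.2 CPM in jejunum and 1422, 961, 1059.7 and 889 CPM in ileum. It was close to absent from jejunum, with 94 counts over 4 libraries against 88791 in ileum (-9.94 ± 0.43 log2, adjusted p = 4.33e-10). Of 18 tested genes of fatty acid synthesis and desaturation 7 were higher in ileum and 3 in jejunum, and 11 and 3 under scaling by library totals.

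**Figure D3:**
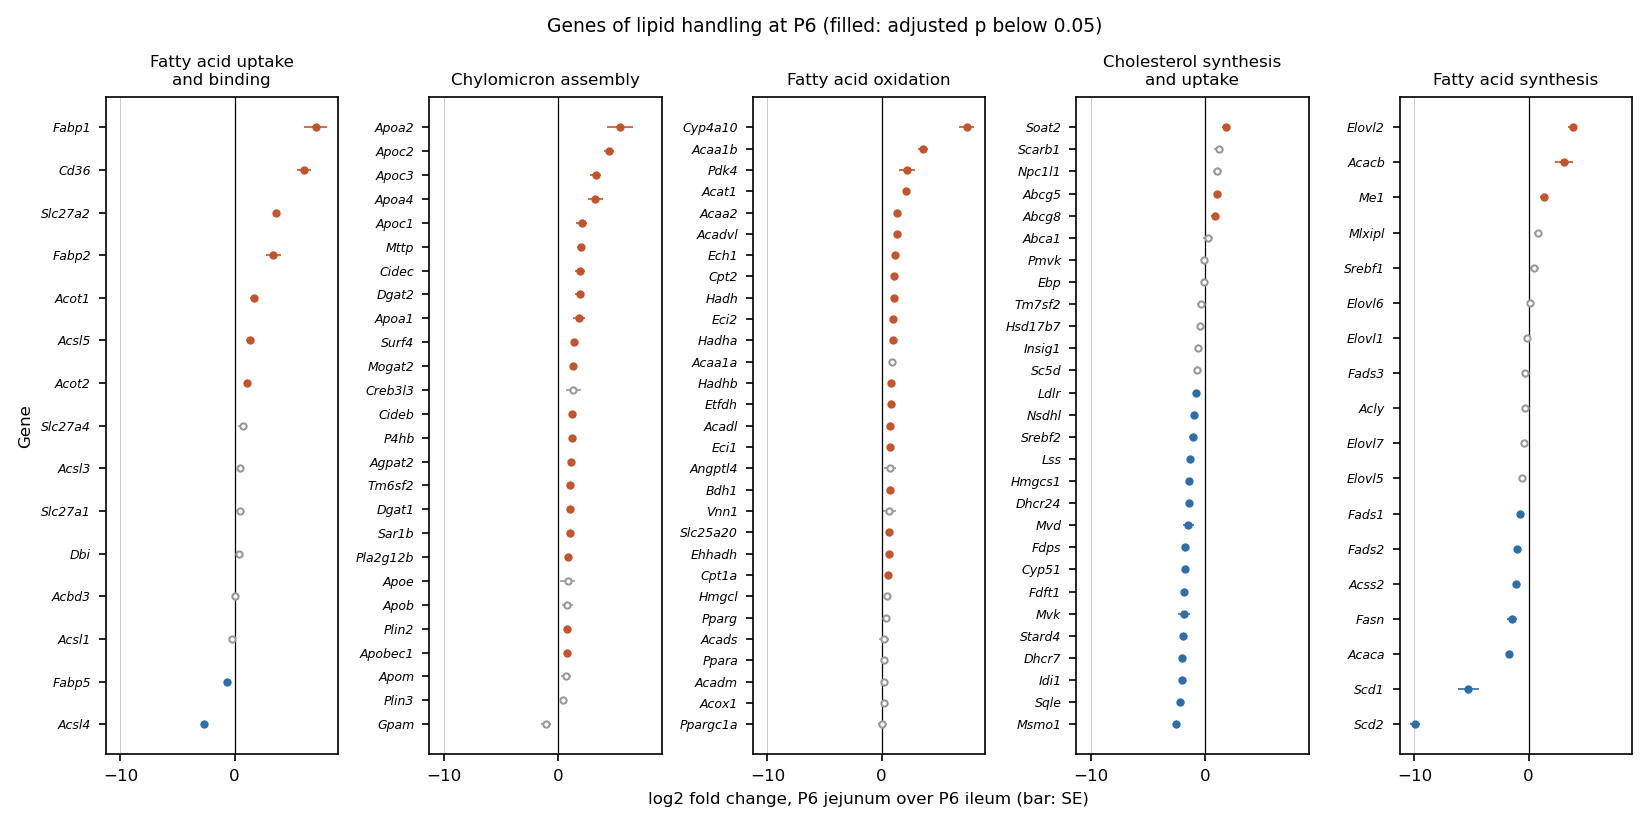
Log2 fold change (jejunum over ileum at P6, bars are SE) of the tested members of 5 lipid lists, 3 members not reported here left out, with filled points where the adjusted p was below 0.05. Genes of uptake, chylomicron assembly and oxidation lie mostly to the right of 0, and genes of cholesterol synthesis to the left; the fitted values of genes with few counts in the lower region depend on the prior count.

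Genes of bile acid recovery showed a mixed pattern at P6, with 4 of 9 higher in jejunum and 2 in ileum (3 and 4 under scaling by library totals). Fabp6 (chr11:43596040-43601562, minus strand), the bile acid binding protein of the ileum, had 0.742, 0, 0.893 and 0 CPM in jejunum and 58.2, 10.9, 74.3 and 6.13 CPM in ileum. It was higher in ileum (-6.51 ± 1.02 log2, adjusted p = 0.000209), and the ileum values of mice 1 and 3 were above those of mice 2 and 4. Slc10a2, the apical sodium-dependent bile acid transporter, had 0.0436, 0.0446, 0 and 0.144 CPM in jejunum and 2.52, 0.775, 4.66 and 0.245 CPM in ileum, that is 5 counts in jejunum and 160 in ileum (-4.96 ± 1.02 log2, adjusted p = 0.00202). It passed the low count filter only through P36 ileum, where it was at 310 ± 178 CPM, and had no value with the 8 P6 libraries alone. Slc51b, a subunit of the basolateral exporter, was higher in jejunum, at 109.7 ± 7.74 CPM in jejunum and 28.7 ± 6.7 CPM in ileum (1.93 ± 0.20 log2, adjusted p = 4.54e-06). Nr0b2, a target of the bile acid receptor FXR, had 32.9, 40.0, 19 and 36.4 CPM in jejunum and 0.494, 1.38, 1.03 and 0.0981 CPM in ileum and was also higher in jejunum (5.40 ± 0.73 log2, adjusted p = 6.17e-05). Fgf15, the hormone that reports ileal bile acid to the liver, had 97.7, 172, 99.1 and 149 CPM in jejunum and 35, 92.1, 232 and 91.9 CPM in ileum, and the jejunum values lay inside the range of the ileum values (0.20 ± 0.78 log2, adjusted p = 0.876). At P36 it was higher in ileum by -7.13 ± 1.20 (adjusted p = 0.000665), and the interaction had an adjusted p of 0.00431.

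The antibody receptor and the receptors for protein uptake went in different directions. Fcgrt (chr7:45092993-45103822, minus strand) had 11289.6, 11082, 10218 and 10199 CPM in jejunum and 1461, 1259, 1033 and 326 CPM in ileum. All 4 jejunum libraries were above all 4 ileum libraries (3.39 ± 0.33 log2, adjusted p = 2.53e-06), and ileum replicate 4 was lowest; without it and replicate 2 the gene still differed. B2m, the light chain of the receptor and of class I molecules, had 1799, 1829.8, 1402 and 2012 CPM in jejunum and 643, 583, 459 and 1051 CPM in ileum (1.36 ± 0.26 log2, adjusted p = 0.00118). Pigr, which carries polymeric antibody to the lumen, was at 185 ± 41.5 CPM in jejunum and 81.4 ± 8.13 CPM in ileum (1.19 ± 0.19 log2, adjusted p = 0.00028). Lrp2 (chr2:69424335-69586067, minus strand), the scavenger receptor megalin, had 19.2, 29.8, 36.3 and 34.5 CPM in jejunum and 96.4, 81.2, 60.6 and 217 CPM in ileum and was higher in ileum (-1.93 ± 0.39 log2, adjusted p = 0.0018). Cubn, the receptor cubilin, had 722, 959, 834 and 872 CPM in jejunum and 1974, 1763, 2171 and 3122 CPM in ileum (-1.41 ± 0.50 log2, adjusted p = 0.0478). Its call rested on every library: leaving out any 1 of the P6 libraries gave an adjusted p of 0.0528 to 0.111, and the mouse as a block 0.0692. Its partners Dab2 (-0.59 ± 0.35 log2, adjusted p = 0.227) and Amn (-0.24 ± 0.46 log2, adjusted p = 0.742) did not pass the test. Over the 21 tested endocytic and antibody receptors 9 were higher in ileum and 3 in jejunum, with 6 in jejunum when the mouse was a block and 5 in ileum without jejunum replicate 1. Sort1, a sorting receptor for lysosomal cargo, was at 52.7 ± 10.7 CPM in jejunum and 112 ± 3.58 CPM in ileum (-1.08 ± 0.15 log2, adjusted p = 5.71e-05).

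Several lysosomal hydrolases were higher in ileum. Of 34 tested glycosidases, sulfatases and lipid hydrolases 13 were higher in ileum and 1 in jejunum (median log2 fold change -0.44), and without ileum replicate 4 the counts were 20 and 2. Galc (chr12:98202300-98259459, minus strand), the galactosylceramidase, had 73.9, 68.3, 72.3 and 61.4 CPM in jejunum and 338, 255, 383 and 336 CPM in ileum (-2.25 ± 0.15 log2, adjusted p = 7.03e-08). Gla, the alpha-galactosidase, was at 80.6 ± 0.762 CPM in jejunum and 199.5 ± 22.5 CPM in ileum (-1.31 ± 0.12 log2, adjusted p = 1.55e-06), and Hexa, a subunit of beta-hexosaminidase, at 989 ± 74.5 CPM in jejunum and 1658 ± 207 CPM in ileum (-0.74 ± 0.14 log2, adjusted p = 0.000951). Among 20 lysosomal proteases 6 were higher in ileum and 2 in jejunum, or 12 and none under scaling by library totals. The 2 in jejunum became 0 without jejunum replicate 1, and 1 without ileum replicate 1, 2 or 3, P36 ileum replicate 2 or 4 or any 1 P36 jejunum library. Lgmn (chr12:102394098-102439697, minus strand) had 3146, 3657, 2495 and 3178 CPM in jejunum and 7865, 8861, 5818 and 6707 CPM in ileum. Each ileum library was above every jejunum library (-1.23 ± 0.22 log2, adjusted p = 0.000641). Ctsl, the cathepsin L gene, had 14706, 10675, 12051 and 8409.9 CPM in jejunum and 7003, 4712, 5579 and 5923 CPM in ileum and was higher in jejunum (0.98 ± 0.28 log2, adjusted p = 0.0175); this call was lost without jejunum replicate 1 (adjusted p = 0.0587), without both doubted ileum libraries (0.0913) and under scaling by library totals (0.0605). Of 38 lysosomal membrane and proton pump genes 10 were higher in ileum, 6 without jejunum replicate 1 or without both doubted ileum libraries, and 20 under scaling by library totals. None was higher in jejunum by edgeR, and 1 or 2 were without P36 ileum replicate 1 or 3. Npc2, which hands cholesterol on inside the lysosome, was at 246 ± 5.04 CPM in jejunum and 598 ± 203 CPM in ileum (-1.28 ± 0.21 log2, adjusted p = 0.000311), while Lamp1, an abundant lysosomal membrane protein, had 2067, 2279.5, 1884 and 2051 CPM in jejunum and 2024, 2034, 2075 and 2072 CPM in ileum and overlapped (0.01 ± 0.14 log2, adjusted p = 0.956).

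Rab GTPases and recycling genes had members in both directions. Of 64 Rab GTPases and recycling genes 15 were higher in jejunum and 8 in ileum, and the order turned to 10 and 21 under scaling by library totals. Ap1s3, a small subunit of the AP-1 clathrin adaptor, had 149, 113, 116 and 114 CPM in jejunum and 10.0, 6.89, 7.16 and 12.3 CPM in ileum (3.76 ± 0.24 log2, adjusted p = 3.07e-08). Rab30, a GTPase of the Golgi, was at 264 ± 51.6 CPM in jejunum and 56.7 ± 30.1 CPM in ileum (2.22 ± 0.34 log2, adjusted p = 0.000182), and Arf4, a GTPase of Golgi transport, at 459 ± 52.1 CPM in jejunum and 199 ± 64.1 CPM in ileum (1.20 ± 0.18 log2, adjusted p = 0.000176).

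Brush border disaccharidases and alkaline phosphatases differed by member, with 2 of 7 tested genes higher in each region. The 2 in ileum became 1 with the mouse as a block and without ileum replicate 3 or 4 or any 1 jejunum library, and the 2 in jejunum became 1 without both doubted ileum libraries, with a mean CPM of at least 1 or with the 8 P6 libraries alone. Lct (chr1:128284764-128328318, minus strand), the lactase gene, had 5736, 5108, 5948 and 4598 CPM in jejunum and 509, 667, 367 and 1245 CPM in ileum. It was higher in jejunum (2.94 ± 0.82 log2, adjusted p = 0.0147). Mgam (chr6:40628831-40769123, plus strand), the maltase-glucoamylase gene, had 198, 191, 226 and 193 CPM in jejunum and 1152, 937, 1118 and 1427 CPM in ileum and was higher in ileum (-2.52 ± 0.24 log2, adjusted p = 1.75e-06). Of 17 tested genes of sugar transport and fructose metabolism 7 were higher in jejunum and 1 in ileum (median log2 fold change 0.79); 2 were higher in ileum without P6 ileum replicate 1, 3 or 4, P36 ileum replicate 1, 2 or 4, or P36 jejunum replicate 1 or 4. Slc5a1, the sodium-glucose cotransporter, was at 888 ± 82.8 CPM in jejunum and 372 ± 66.8 CPM in ileum (1.25 ± 0.31 log2, adjusted p = 0.0077). Slc2a2, the basolateral glucose transporter GLUT2, was at 325 ± 19.1 CPM in jejunum and 42.7 ± 12.6 CPM in ileum (2.93 ± 0.47 log2, adjusted p = 0.000272). Slc2a5, the fructose transporter, was low in both regions but differed more, at 46.7 ± 11.8 CPM in jejunum and 1.96 ± 0.133 CPM in ileum (4.57 ± 0.43 log2, adjusted p = 1.47e-06).

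Of 18 tested genes of gluconeogenesis and arginine synthesis 6 were higher in jejunum, 1 was higher in ileum and the others did not pass the test, the 1 becoming 2 without ileum replicate 4 or both doubted libraries. Pck1 (chr2:173153073-173159253, plus strand), phosphoenolpyruvate carboxykinase, had 2877, 4722, 2995 and 4313 CPM in jejunum and 292, 460.2, 540.3 and 282 CPM in ileum (3.24 ± 0.50 log2, adjusted p = 0.000201). In jejunum mice 2 and 4 were highest. Fbp1, fructose-bisphosphatase, was at 919 ± 87.8 CPM in jejunum and 348 ± 40.0 CPM in ileum (1.40 ± 0.21 log2, adjusted p = 0.000173). Gpt, alanine aminotransferase, was at 127 ± 34.5 CPM in jejunum and 3.54 ± 1.59 CPM in ileum (5.16 ± 0.49 log2, adjusted p = 1.8e-06).

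Peptide and amino acid genes had members in both directions. Mme, the peptidase neprilysin, had 143, 182, 93.7 and 282 CPM in jejunum and 3.95, 3.71, 3.85 and 2.65 CPM in ileum and was higher in jejunum (5.63 ± 0.84 log2, adjusted p = 0.000149). Mep1a, a subunit of meprin, had 826, 978, 884 and 902 CPM in jejunum and 2292, 2173, 2537 and 2161 CPM in ileum and was higher in ileum (-1.35 ± 0.27 log2, adjusted p = 0.00144). The 12 tested brush border peptidases gave 4 in each direction, and leaving out 1 library at a time gave 2 to 4 in jejunum and 1 to 4 in ileum, the 2 in jejunum without ileum replicate 2, ileum replicate 4 or any 1 jejunum library and the 1 in ileum without jejunum replicate 1 or 4. Of 27 peptide and amino acid transporters 7 were higher in ileum and 3 in jejunum (14.8% and 11.1% over all tested genes). Without P36 ileum replicate 1 or 3, which share the estimate of spread, 5 were higher in jejunum. With the 8 P6 libraries alone 6 were, and without both doubted ileum libraries 1 was. Slc6a14 (chrX:21714900-21742357, plus strand), a transporter of neutral and cationic amino acids, had 0.175, 0.0446, 0 and 0.0479 CPM in jejunum and 167, 55.9, 78.4 and 9.66 CPM in ileum. It rested on 6 counts over all of jejunum and 6317 in ileum (-9.99 ± 1.01 log2, adjusted p = 3.47e-06). Slc1a1, a glutamate transporter, was at 2.77 ± 0.24 CPM in jejunum and 31.9 ± 10.4 CPM in ileum (-3.52 ± 0.24 log2, adjusted p = 5.27e-08).

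Ion, water, metal and vitamin genes separated the regions by member. Slc9a3 (chr13:74121515-74166064, plus strand), the sodium-proton exchanger NHE3, had 185, 147, 159 and 144 CPM in jejunum and 6.71, 6.63, 4.56 and 5.54 CPM in ileum and was higher in jejunum (4.76 ± 0.52 log2, adjusted p = 7.79e-06). So was Aqp8, a water channel, at 95.3 ± 24.2 CPM in jejunum and 1.45 ± 0.89 CPM in ileum (6.03 ± 0.57 log2, adjusted p = 1.76e-06). Scnn1a, a subunit of the epithelial sodium channel, was at 114 ± 10.2 CPM in jejunum and 31 ± 6.27 CPM in ileum (1.88 ± 0.14 log2, adjusted p = 1.64e-07), and Slc26a3, a chloride-bicarbonate exchanger, at 215 ± 6.93 CPM in jejunum and 105 ± 33.3 CPM in ileum (1.04 ± 0.20 log2, adjusted p = 0.00112). Guca2a (chr4:119637732-119639465, plus strand), the peptide guanylin, had 114, 129, 142 and 104 CPM in jejunum and 1338, 1547, 1442 and 271 CPM in ileum and was higher in ileum (-3.23 ± 0.38 log2, adjusted p = 1.57e-05), with ileum replicate 4 far below the other ileum libraries. In all, 11 of 35 tested sodium, chloride and bicarbonate genes were higher in jejunum and 7 in ileum.

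Rbp2 (chr9:98490537-98509771, plus strand), the cellular retinol binding protein of enterocytes, had 3239.7, 3136, 2421 and 3356 CPM in jejunum and 275, 392, 158 and 212 CPM in ileum. All jejunum libraries were above all ileum libraries (3.55 ± 0.58 log2, adjusted p = 0.000316). Lrat, which esterifies retinol, was at 257 ± 82.4 CPM in jejunum and 85.2 ± 41.6 CPM in ileum (1.59 ± 0.35 log2, adjusted p = 0.00317). Of 22 tested vitamin A, cobalamin and folate genes 8 were higher in jejunum and 3 in ileum, and the 3 became 1 without ileum replicate 2 or without jejunum replicate 1, 3 or 4. Cybrd1, a ferric reductase, was at 96 ± 27.4 CPM in jejunum and 11 ± 5.94 CPM in ileum (3.13 ± 0.42 log2, adjusted p = 5.2e-05) and Slc39a4, the zinc importer ZIP4, at 620.4 ± 331 CPM in jejunum and 95.3 ± 41 CPM in ileum (2.70 ± 0.43 log2, adjusted p = 0.000238). S100g, the calcium binding protein calbindin-D9k, was higher in ileum, at 48.7 ± 4.84 CPM in jejunum and 123 ± 25.8 CPM in ileum (-1.33 ± 0.25 log2, adjusted p = 0.000951).

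Transcription factors differed in both directions. Gata4 (chr14:63198915-63245260, minus strand), a factor of proximal intestinal identity, had 155, 161, 157 and 164 CPM in jejunum and 8.98, 18.4, 3.25 and 34.7 CPM in ileum. The jejunum libraries were nearly equal and the ileum libraries spread widely (3.28 ± 0.83 log2, adjusted p = 0.00844). Onecut2 had 36.7, 54.6, 24.7 and 90.6 CPM in jejunum and 2.76, 1.34, 0.434 and 3.04 CPM in ileum (4.76 ± 0.51 log2, adjusted p = 5.41e-06). Zfpm1, a partner of GATA factors, was at 103 ± 4.97 CPM in jejunum and 18.6 ± 11.8 CPM in ileum (2.47 ± 0.50 log2, adjusted p = 0.00177). Higher in ileum were Foxa1, at 10.3 ± 0.482 CPM in jejunum and 34.7 ± 7.35 CPM in ileum (-1.75 ± 0.17 log2, adjusted p = 1.72e-06), and Nr5a2 (-1.02 ± 0.18 log2, adjusted p = 0.000511). Cdx2 (-0.05 ± 0.16 log2, adjusted p = 0.856) and Hnf4a (0.12 ± 0.13 log2, adjusted p = 0.501), general intestinal factors, overlapped between regions and did not pass the test. Over 33 tested factors 10 were higher in ileum and 6 in jejunum, with 6 in ileum without jejunum replicate 4. Of 12 Hox genes with enough counts 8 were higher in ileum and none in jejunum by edgeR (median log2 fold change -3.16; 4 with the 8 P6 libraries alone). Hoxb3 had 0.436, 0.714, 0.21 and 0.0958 CPM in jejunum and 7.6, 5.73, 9.06 and 1.32 CPM in ileum (-3.98 ± 0.67 log2, adjusted p = 0.000392); 39 Hox genes are in the files, and those not tested had too few counts.

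Plasma protein genes, better known from liver and yolk sac, were divided between the regions. Afp (chr5:90490714-90508907, plus strand), alpha-fetoprotein, had 15.7, 8.43, 16.9 and 9.29 CPM in jejunum and 1736, 705, 817 and 564 CPM in ileum. It was higher in ileum (-6.25 ± 0.39 log2, adjusted p = 2.75e-08). Fgb, a fibrinogen chain, was low but higher in ileum, at 0.2 ± 0.0564 CPM in jejunum and 11.7 ± 7.47 CPM in ileum (-5.83 ± 0.59 log2, adjusted p = 1.39e-05). Serpina1a (chr12:103853295-103863619, minus strand), an alpha-1-antitrypsin gene, had 302, 279.9, 119.7 and 275 CPM in jejunum and 3.7, 6.16, 1.36 and 3.53 CPM in ileum and was higher in jejunum (6.04 ± 0.45 log2, adjusted p = 1.64e-07). Serpina1e was at 693 ± 256 CPM in jejunum and 41.7 ± 16.8 CPM in ileum (4.05 ± 0.41 log2, adjusted p = 3.13e-06). The Serpina1 genes are near-identical copies, so the share of reads assigned to each is uncertain. Over the list of 19 tested plasma protein genes 6 were higher in ileum and 4 in jejunum. Ctrb1 and Cela1, digestive proteases best known from the pancreas, were also higher in jejunum, Ctrb1 at 179 ± 93.5 CPM in jejunum and 1.44 ± 1.12 CPM in ileum (6.93 ± 0.65 log2, adjusted p = 1.55e-06) and Cela1 at 24 ± 4.33 CPM in jejunum and 3.06 ± 1.1 CPM in ileum (2.97 ± 0.25 log2, adjusted p = 5.48e-07); the other 7 of 9 acinar genes were too low to test.

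A set of interferon-induced and class I genes was higher in jejunum. Of 50 tested genes 22 were higher in jejunum and 1 in ileum (median log2 fold change 0.88), 31 and 3 with the mouse as a block; the single ileum call was lost without ileum replicate 2 and became 2 without P36 ileum replicate 1. Ifit2 (chr19:34550694-34576534, plus strand), an interferon-induced protein that binds RNA, had 537, 513, 385 and 277 CPM in jejunum and 23.9, 38.6, 15.2 and 24.7 CPM in ileum. The lowest jejunum library was above the highest ileum library (4.06 ± 0.32 log2, adjusted p = 2.71e-07). Zbp1, a sensor of nucleic acids, was at 68.9 ± 20.4 CPM in jejunum and 4.8 ± 2.46 CPM in ileum (3.84 ± 0.43 log2, adjusted p = 9.49e-06), Mx2, an antiviral GTPase, at 30.3 ± 4.52 CPM in jejunum and 2.84 ± 1.41 CPM in ileum (3.40 ± 0.34 log2, adjusted p = 2.8e-06), and the transcription factor Irf8 at 129 ± 7.14 CPM in jejunum and 37.4 ± 11.4 CPM in ileum (1.78 ± 0.18 log2, adjusted p = 3.49e-06). The summed level of the T cell list was 5.80 to 13.0 CPM in jejunum and 3.16 to 8.29 CPM in ileum, which overlapped. That of the macrophage list was 480.5, 507, 433 and 457 CPM in jejunum and 263, 365, 267 and 166 CPM in ileum, without overlap. Csf1r, the receptor for colony stimulating factor 1, made up most of it (455 ± 34.4 CPM in jejunum and 244 ± 74.2 CPM in ileum), and of the 9 tested macrophage markers 1 was higher in each region. The call in jejunum, that of Csf1r, was lost without any 1 P6 jejunum library, P6 ileum replicate 1, 3 or 4, both doubted ileum libraries, P36 ileum replicate 4 or P36 jejunum replicate 1 or 4, with sex as a covariate and under scaling by library totals, and the 1 in ileum became 2 without ileum replicate 1 or 3. The summed B and plasma cell list was 0.262 to 0.473 CPM in jejunum and 1.52 to 3.48 CPM in ileum. The part of these cell types in the interferon differences was not tested.

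Antimicrobial and innate defence genes were higher in ileum for 11 and in jejunum for 3 of 31 tested genes, or 12 and 5 with the mouse as a block (median log2 fold change -0.97). Reg3b, a C-type lectin of the antimicrobial Reg3 family, had 5.24, 2.23, 17.1 and 5.51 CPM in jejunum and 166, 42.6, 246 and 18.1 CPM in ileum (-3.98 ± 0.73 log2, adjusted p = 0.000815). The values of mice 1 and 3 were higher than those of mice 2 and 4 in ileum. Ltf, lactoferrin, had 1.61, 3.44, 1.89 and 5.98 CPM in jejunum and 10.1, 33.9, 9.33 and 21.2 CPM in ileum, with mice 2 and 4 higher in both regions (-2.53 ± 0.48 log2, adjusted p = 0.00117). Tlr2, a receptor of bacterial lipoproteins, was at 1.48 ± 0.202 CPM in jejunum and 8.58 ± 4.74 CPM in ileum (-2.53 ± 0.39 log2, adjusted p = 0.000183).

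Glycosyltransferases changed in both directions, with 19 of 54 tested genes higher in ileum and 10 in jejunum. B4galt1 (chr4:40804582-40854537, minus strand), a galactosyltransferase, had 6.94, 6.16, 7.88 and 6.08 CPM in jejunum and 99.3, 94.9, 95.1 and 86.3 CPM in ileum. The ileum values lay close together and far above jejunum (-3.79 ± 0.16 log2, adjusted p = 4.33e-10). Galnt3, which starts mucin-type glycans, was at 67.5 ± 9.87 CPM in jejunum and 195 ± 32.3 CPM in ileum (-1.53 ± 0.14 log2, adjusted p = 1.46e-06), and St6gal1, which adds terminal sialic acid, at 0.91 ± 0.221 CPM in jejunum and 9.86 ± 1.75 CPM in ileum (-3.43 ± 0.60 log2, adjusted p = 0.000571). St3gal5, which makes the ganglioside GM3, was higher in jejunum, at 234 ± 77.9 CPM in jejunum and 39 ± 11 CPM in ileum (2.59 ± 0.30 log2, adjusted p = 1.24e-05). Phase II conjugation enzymes showed 9 of 36 higher in ileum and 6 in jejunum, the 6 becoming 3 without ileum replicate 1 and 2 under scaling by library totals. Gsta2 was higher in ileum, at 5.95 ± 3.12 CPM in jejunum and 55.4 ± 19.3 CPM in ileum (-3.22 ± 0.45 log2, adjusted p = 8.26e-05), and Gstm5 in jejunum, at 89.2 ± 11 CPM in jejunum and 22.3 ± 3.46 CPM in ileum (2.00 ± 0.18 log2, adjusted p = 9.27e-07); both belong to families of similar glutathione S-transferase genes. Abcb1a, an efflux pump, was at 64.3 ± 2.54 CPM in jejunum and 182 ± 40.3 CPM in ileum (-1.50 ± 0.31 log2, adjusted p = 0.0022).

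Claudins, which set the permeability of the tight junction, had members in both directions. Of 19 tested claudin and tight junction genes 3 were higher in jejunum and 2 in ileum, against 11.1% and 14.8% of all tested genes. The 2 in ileum became 4 without ileum replicate 2, 1 without jejunum replicate 1, 2 or 3, and 8 under scaling by library totals. Cldn8 (chr16:88560826-88563183, minus strand) had 3.93, 4.15, 4.41 and 3.59 CPM in jejunum and 183, 180.0, 199.8 and 179 CPM in ileum. The ileum values lay close together and all were above jejunum (-5.53 ± 0.26 log2, adjusted p = 9.76e-10). Cldn15, a claudin of cation pores, was higher in jejunum, at 73.2 ± 7.07 CPM in jejunum and 31.8 ± 9.38 CPM in ileum (1.20 ± 0.18 log2, adjusted p = 0.00016), as was Cldn19, at 46.2 ± 6.96 CPM in jejunum and 5.89 ± 1.47 CPM in ileum (2.97 ± 0.22 log2, adjusted p = 8.72e-06). The summed level of the collagen list was 70.2, 77.4, 76.5 and 60.9 CPM in jejunum and 122, 673, 124 and 87.5 CPM in ileum, far highest in ileum replicate 2, the library with stromal genes. Of 23 tested collagens 15 were higher in ileum and 1 in jejunum, but without ileum replicate 2 these were 3 and 2, with the mouse as a block 6 and 1, and without jejunum replicate 1, 2 or 4 the ileum count was 9, 8 or 8. Of 8 laminin chains 5 were higher in ileum and 3 without ileum replicate 2; their summed level was 322, 292, 260.0 and 199 CPM in jejunum and 663, 656, 474 and 468 CPM in ileum, without overlap. All 7 fibroblast markers called higher in ileum, of 8 tested, lost the call without ileum replicate 2; 2 were called without jejunum replicate 1, 2 or 4, and 1 with the mouse as a block.

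Of 17 tested goblet cell markers 11 were higher in ileum and none in jejunum by edgeR, 7 without jejunum replicate 2 or with the 8 P6 libraries alone and 12 without both doubted ileum libraries; 1 was higher in jejunum without ileum replicate 3. Muc2 (chr7:141690340-141754694, plus strand), the gel-forming mucin, had 206, 202, 191 and 175 CPM in jejunum and 842, 619, 803 and 648 CPM in ileum (-1.91 ± 0.29 log2, adjusted p = 0.000159), and Agr2, which folds mucins, was at 62.7 ± 4.18 CPM in jejunum and 190.5 ± 49.7 CPM in ileum (-1.60 ± 0.19 log2, adjusted p = 1.46e-05). Of 10 Paneth cell markers 7 were higher in ileum, 4 without any 1 of jejunum replicates 1, 3 and 4 or with no low count filter and 3 without both doubted ileum libraries. Their summed level was 817, 56.1, 579.9 and 36.2 CPM in jejunum and 688, 104, 505 and 109.8 CPM in ileum. It was high in mice 1 and 3, whose names in the labels share a stem, and low in mice 2 and 4, which share another, in both regions, and in mice 1 and 3 the sum was lower in ileum than in jejunum. Of 13 tuft cell markers 2 were higher in each region, where 11.1% of all tested genes were higher in jejunum and 14.8% in ileum. The 2 in ileum became 1 with the mouse as a block, without ileum replicate 2, any 1 jejunum library or both doubted ileum libraries. They became 3 without ileum replicate 4 and 0 with the 8 P6 libraries alone. Enteroendocrine markers depended on the hormone: 10 of 32 were higher in ileum and 2 in jejunum. Gip (chr11:96024545-96030828, plus strand), the hormone of proximal K cells, had 96.2, 65.2, 69.5 and 74.4 CPM in jejunum and 4.99, 4.35, 1.36 and 2.99 CPM in ileum and was higher in jejunum (4.47 ± 0.33 log2, adjusted p = 1.34e-07). Gcg, the gene of GLP-1, was at 17.9 ± 3.48 CPM in jejunum and 41.2 ± 9.05 CPM in ileum (-1.21 ± 0.29 log2, adjusted p = 0.00532) and Nts, neurotensin, at 100.2 ± 10.9 CPM in jejunum and 196 ± 53.4 CPM in ileum (-0.97 ± 0.26 log2, adjusted p = 0.0135), both higher in ileum.

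Of 21 stem cell genes 2 were higher in each region, or 4 in ileum and 3 in jejunum with the mouse as a block. Over all tested genes 11.1% were higher in jejunum and 14.8% in ileum, the shares to set beside the stem cell, cell cycle and ribosomal counts. Lgr5, the receptor that marks crypt stem cells, was at 19.1 ± 3.22 CPM in jejunum and 36.3 ± 9.04 CPM in ileum (-0.93 ± 0.26 log2, adjusted p = 0.0157; adjusted p = 0.0576 without jejunum replicate 4). Ephb2 and Ephb3, receptors that position cells along the crypt, were higher in jejunum (2.51 ± 0.34 log2, adjusted p = 6.48e-05 and 3.12 ± 0.49 log2, adjusted p = 0.000221). Of 45 cell cycle genes 6 were higher in jejunum and none in ileum by edgeR, which was 10 with the mouse as a block, 3 without jejunum replicate 1, 1 without both doubted ileum libraries and 0 under scaling by library totals. Of 76 ribosomal protein genes 2 were higher in jejunum and 1 in ileum, but 22 were higher in ileum under scaling by library totals; 8 were with the mouse as a block. Leaving out 1 library gave 10 in ileum without P36 ileum replicate 3, 7 without P36 ileum replicate 1 or P6 ileum replicate 3, 4 without ileum replicate 1, and 0 without ileum replicate 2 or jejunum replicate 1, 2 or 3. Epcam, a marker of all intestinal epithelium, was at 1289 ± 108 CPM in jejunum and 1901 ± 168 CPM in ileum (-0.56 ± 0.16 log2, adjusted p = 0.0157; adjusted p = 0.0529 without jejunum replicate 3).

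Rarres1 (chr3:67478886-67515523, minus strand), a retinoic acid responsive gene, and Il18r1 (chr1:40465552-40500854, plus strand), a subunit of the interleukin-18 receptor, were close to absent from P6 jejunum. Rarres1 had 0, 0.0892, 0.0525 and 0.0479 CPM in jejunum and 99.5, 102, 101 and 48.4 CPM in ileum, that is 4 counts in jejunum and 7235 in ileum (-10.69 ± 0.52 log2, adjusted p = 1.88e-09). Il18r1 had 0.218, 0.312, 0.683 and 0.144 CPM in jejunum and 77.7, 130.2, 105 and 85.9 CPM in ileum (-8.20 ± 0.45 log2, adjusted p = 6.19e-09).

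Many regional differences at P6 were not the same at P36. At P36 2163 genes (16.1%) differed between jejunum and ileum, and the regional difference itself differed between the ages for 1167 genes (8.69%). Of the 3484 genes called at P6, 980 were called in the same direction at P36, 106 in the opposite direction and 2398 at P6 alone, and for 817 the interaction passed the test. All 106 genes with opposite calls passed it, but the choice of calls with opposite signs in the same fit favours this, and it is no separate test. The P6 and P36 values came from different mice, and the age difference cannot be told apart from any difference between those sets of animals.

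Afp had the opposite direction at P36, at 3.52 ± 0.39 on the log2 scale (adjusted p = 1.68e-05), with an interaction adjusted p of 3.4e-08. So did Mgam (0.92 ± 0.23, adjusted p = 0.0114; interaction 8.34e-06), Gsta2 (2.69 ± 0.67, adjusted p = 0.0115; interaction 0.000209), Slc51b (-1.28 ± 0.20, adjusted p = 0.000325; interaction 3.58e-06) and Scnn1a (-0.66 ± 0.14, adjusted p = 0.00401; interaction 8.13e-07). The P6 difference of Fcgrt was larger than that at P36, where it was 0.32 ± 0.31 (adjusted p = 0.545; interaction 0.000396). The same held for Scd2 (-2.04 ± 0.30 at P36; interaction 5.36e-08), B4galt1 (-0.12 ± 0.15; interaction 4.77e-08), Mfsd2a (1.50 ± 0.51; interaction 0.000144) and Ifit2 (-0.56 ± 0.31; interaction 8.01e-06). For Slc2a2 the P36 difference was the larger one (7.12 ± 0.58; interaction 0.0009). Fabp1 (7.91 ± 1.05 at P36; interaction 0.696), Cd36 (6.71 ± 0.67; interaction 0.687) and Rbp2 (4.08 ± 0.60; interaction 0.704) were higher in jejunum at both ages, and their interaction did not pass the test.

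**Figure D4:**
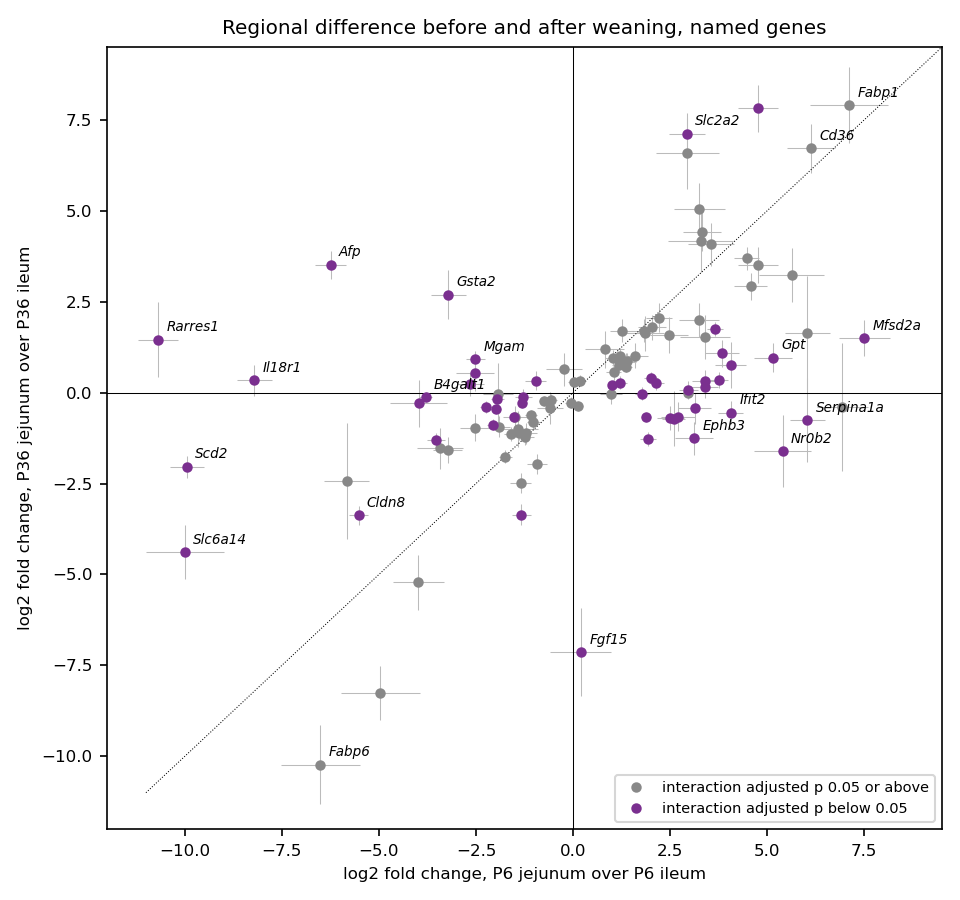
Log2 fold change of jejunum over ileum at P6 (horizontal) against P36 (vertical) for the 109 genes described, bars are SE, with purple points where the region-by-age interaction had an adjusted p below 0.05. Points on the dotted diagonal have equal differences at both ages: Fabp1 and Cd36 lie near it, Scd2, Rarres1 and Il18r1 lie far to the left at -2.04, 1.46 and 0.34 on the vertical axis, and Afp and Gsta2 lie in the upper left quadrant.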

How the data were processed

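Poly(A) RNA of jejunal and ileal epithelium from 4 mice at P6 and 4 at P36 was sequenced as stranded paired libraries. Per the deposited file headers and the submitters' processing notes, the authors used Trimmomatic 0.38 for trimming, STAR (2.5.3 in those notes) for alignment to mm10, and featureCounts 1.6.3 for counts per gene, strand-specific, for 24421 genes. Groups and mice came from the sample labels, and replicates were numbered within each group in the order of the samples. The counts were used as deposited.

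Genes passing filterByExpr over the 4 groups (13429) were fitted over all 16 libraries with edgeR 4.0.16 (quasi-likelihood, TMM; R 4.3.3) without a block, and p-values were Benjamini-Hochberg adjusted over all tested genes. TPM used the exon lengths of the files. On simulated counts for the P6 comparison, 186 of 200 genes changed by 3 on the log2 scale were recovered, with 8 false calls. These counts were drawn independently, without mouse pairs, a GC trend or stromal transcripts, and no other gene was changed. The figures check the fit only and do not give the recovery or false calls of the reported comparison. DESeq2 1.42.0, other scalings and filters, a GC correction, sex, the mouse as a block and left-out libraries were alternatives. Deviations from the group means correlated between jejunum and ileum of a mouse (Pearson's r of the 4 pairs 0.16 to 0.39 at P6). Other pairings gave -0.28 to 0.12, and their mean of -0.11 is largely fixed by the centring on group means. By the labels both regions came from the same animal, so the numbers pair the samples. Named genes were fixed key genes of each list, up to 4 further members per direction and list with the smallest adjusted p, the 12 largest changes per direction past a minimum level, the 10 highest by TPM per region, and genes the study names; this gave 368 genes. The 109 described were picked from them by hand after their values and their stability under the alternatives had been seen, with preference for stable calls. The genes and lists were chosen with earlier results of these data known. A few genes of the lists are not reported here by name, but are in the counts and medians.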

Additional observations from a re-analysis of the deposited data

Results flagged for a closer look

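The regional difference of 49 of the 109 genes described differed between P6 and P36 (interaction in edgeR, adjusted p below 0.05, against 8.69% of all tested genes); the genes were picked after their values were seen, so this share is a description. Values below are the P6 minus the P36 log2 fold change. In lipid and sterol genes they were 6.00 for Mfsd2a, 1.91 for Slc27a2, 1.88 for Acat1, 0.81 for Hadha, -2.87 for Acsl4, -7.90 for Scd2, -1.77 for Stard4, -1.54 for Dhcr7 and -1.17 for Idi1. In bile acid and uptake genes they were 7.33 for Fgf15, 7.00 for Nr0b2, 3.21 for Slc51b, 3.07 for Fcgrt, 3.42 for Ap1s3 and 0.93 for Arf4, and in lysosomal genes -1.85 for Galc, -1.16 for Npc2 and -1.01 for Gla. In nutrient and metabolic genes they were -3.44 for Mgam, -4.19 for Slc2a2, -5.61 for Slc6a14, -2.21 for Slc1a1 and 4.19 for Gpt. In ion, metal and calcium genes they were 2.54 for Scnn1a, 3.56 for Cybrd1, 3.37 for Slc39a4 and 2.02 for S100g. In defence and interferon genes they were 4.62 for Ifit2, 3.24 for Mx2, 2.76 for Zbp1, 1.81 for Irf8, -3.68 for Reg3b and -3.06 for Ltf. In glycosylation, conjugation and junction genes they were -3.67 for B4galt1, -0.86 for Galnt3, 3.30 for St3gal5, -5.91 for Gsta2, 1.59 for Gstm5 and -2.15 for Cldn8. For the remaining genes they were -9.76 for Afp, 6.80 for Serpina1a, 3.30 for Serpina1e, -3.06 for Onecut2, -1.29 for Nts, 3.21 for Ephb2, 4.38 for Ephb3, 2.90 for Cela1, -8.54 for Il18r1 and -12.14 for Rarres1.

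In 18 of 218 groups of 4 P6 libraries 1 library stood apart by Dixon's criterion, which chance gives in about 1 of 20 groups. Ileum replicate 4, the library with the GC trend, was the one in 9 of them: its CPM was 217 for Surf4, 26.3 for Idi1, 1605 for Dab2, 472 for Slc5a1, 61.5 for Slc2a2, 271 for Guca2a, 264 for Agr2, 48.4 for Rarres1 and 295 for Arf4. Ileum replicate 2, the library with stromal genes, was the highest for Mx2 (4.95 CPM). Ileum replicate 3 was the highest for Cldn8 (199.8 CPM). In jejunum, replicate 1 was the highest for Gcg (23 CPM), Ephb2 (229 CPM) and Ap1s3 (149 CPM), replicate 3 the lowest for Serpina1a (119.7 CPM) and Serpina1e (309 CPM), and replicate 4 the highest for Hmgcs1 (93.9 CPM) and the lowest for Hexa (878 CPM). The part of the stromal genes and of the GC trend in these values was not tested.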

How the results depend on the processing

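Of the 368 genes the naming rule gave, 319 were called at P6. Of these, 241 stayed past the threshold in the same direction in each of the 27 alternative fits that gave them an adjusted p, while 78 lost the call under at least 1. Among the 109 described the split was 96 and 5, which the choice of stable genes favours. The count of 3484 genes at P6 became 5308 with a GC correction, 5973 with a GC correction and the mouse as a replicate block, 873 with the fold change minimum of 2, and, in a split chosen after seeing the data, 1426 within the mice labelled L41800 (2590 within those labelled L42150). Leaving out 1 library at a time gave 2605 (without jejunum replicate 4) to 4450 (without ileum replicate 4), and DESeq2 gave 4069. The mouse as a replicate block gave 3622 genes at P6, 2437 at P36 and 1294 for the interaction. Only 3164 of the 3622 were among the 3484, and 46.6% of the 3622 were higher in jejunum, against 42.9% without the block. The block changed the call of 24 of the 368 genes, of which Cubn, which lost it, is described. At P36 the count of 2163 became 3262 with a GC correction, 4095 with a GC correction and the block, 4001 without both doubted P6 ileum libraries, 484 with the fold change minimum, and 1418 (without P36 jejunum replicate 1) to 3922 (without P6 ileum replicate 4) when 1 library was left out. The interaction count of 1167 became 2801 with a GC correction, 3524 with the GC correction and the block, 453 with the fold change minimum, and 835 (without P6 jejunum replicate 4) to 1912 (without P6 ileum replicate 4) when 1 library was left out. A fit of the 8 P6 libraries alone gave 2598 genes at P6 and gives no value for P36 or the interaction. The causes of these shifts were not tested. Depth limits the transcripts with few counts, such as the Hox genes.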

Other observations

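In a comparison of the label stems chosen after seeing the data, 261 genes differed over both regions. Of these, 118 were higher in the mice labelled L41800 and 143 in those labelled L42150, and 56 also differed between the regions. Each stem had 2 mice, and the fit had no mouse term. Both regions of a mouse thus counted as separate replicates, and the adjusted p-values of the stems do not measure the spread between mice. Among the genes described these were Fabp6 (log2 difference 5.00, adjusted p = 0.00627), Reg3b (2.14, adjusted p = 0.0147) and Afp (0.94, adjusted p = 0.039), higher in L41800, and Ltf (-1.47, adjusted p = 0.0274), higher in L42150. The regional difference itself differed between the stems for 1 gene, the goblet cell gene Zg16, which was named here for that result: jejunum over ileum was -1.33 in L41800 and 5.58 in L42150 (adjusted p of the difference = 0.000621). Of the 3484 regional calls 3466 had the same sign within both stems. The calls were made on these same libraries, so the selection favours this and it is no separate test of them.

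Of 18 tested genes of the COPII coat and its partners, which carries cargo out of the endoplasmic reticulum, 12 were higher in P6 jejunum and none in ileum by edgeR (median log2 fold change 0.74), 10 and none without both doubted ileum libraries and 9 and 1 under scaling by library totals. The COPI coat, which runs in the reverse direction, had 3 of 9 genes higher in jejunum and none in ileum by edgeR, 7 and none without both doubted ileum libraries and 5 and none by DESeq2. In ileum DESeq2 called none of either coat and none had an unadjusted p below 0.05. Of 11 annexins 4 were higher in ileum and none in jejunum by edgeR, where 1 was by DESeq2, by unadjusted p and without both doubted ileum libraries. Of 4 butyrophilin-like genes 3 were higher in jejunum, 2 under scaling by library totals. These families were picked after their values were seen.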
